A study of Drosophila melanogaster with 7 samples.

Results

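In Drosophila melanogaster S2 cells, 484 of 13044 merged ChIP-Seq regions (3.71%) held called intervals of HP1c, Dsk2 and WOC and none of ROW. They were found by pooling the interval lists of HP1c, Dsk2, WOC, ROW and Z4, chaining intervals that share at least 1 bp into merged regions, and keeping those with the first 3 proteins and no ROW. Of the 484 regions, 201 also held a Z4 interval and 283 did not. These regions were chosen by the presence and absence of called intervals, so their composition, interval widths and distance to ROW are given as a description, with no test.

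HP1c is a heterochromatin protein 1 paralogue that is found mainly in euchromatin, where its chromodomain can bind methylated histone H3. WOC and ROW are large zinc-finger proteins known to associate with HP1c. Dsk2 (RefSeq symbol Ubqn) is a ubiquilin, a protein with a ubiquitin-like and a ubiquitin-associated domain that is best known for shuttling ubiquitylated proteins and that also associates with HP1c on chromatin. Z4 (RefSeq symbol pzg), also a zinc-finger protein, marks the interbands of polytene chromosomes. Regions with HP1c, Dsk2 and WOC but no ROW are therefore places where HP1c was called with some of its known partners and without another.

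S2 is a line cultured from fly embryos. Chromatin was precipitated with polyclonal antibodies, raised in guinea pig for Z4 and in rabbit for the other proteins, and each protein gave 1 library. HP1c and Dsk2 had 1 input library, and WOC, ROW and Z4 another; all samples are untreated cells of 1 line as far as the labels say. The deposited lists hold positions without a score or read number, so the depth is unknown, and the cell line could not be checked against markers in such data. With 1 library per protein no difference below was tested across samples, and confidence intervals (exact Clopper-Pearson for shares, order-statistic for medians, both 95%) cover the number of regions only and treat regions as independent. A protein counts as absent where no interval passed the authors' threshold, which is not a measurement of zero binding.

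The 3 defining proteins lay on top of one another in nearly all of these regions. HP1c, Dsk2 and WOC had at least 1 base in common in 442 of 484 regions (91.3%, 88.5 to 93.7%), and the other regions were joined end to end by a chain. The rule joins intervals by shared bases, so it favours such overlap by construction. The share was 93.6% (862 of 921) in regions with all 5 proteins. It was 92.3% (48 of 52) in those with HP1c, Dsk2, WOC and ROW but no Z4. Among the 484 regions, the longest run common to the 3 had a median of 91 bp (77 to 103 bp, n = 442). Most regions were simple, since 464 of 484 held a single HP1c interval, 477 a single Dsk2 interval and 479 a single WOC interval, and none held more than 2 of any of these. Regions with all 5 proteins were more compound, with up to 8 HP1c and 9 WOC intervals in 1 region, and 84.5% of them had a single HP1c interval.

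Dsk2 and WOC were the most closely centred pair. Their midpoints were a median of 28.75 bp apart (25.5 to 33 bp), against 49.5 bp (42 to 60 bp) between HP1c and Dsk2 and 66.75 bp (57.5 to 76 bp) between HP1c and WOC. The HP1c midpoint lay inside a Dsk2 interval in 90.3% of the regions (87.3 to 92.8%) and inside a WOC interval in 79.1% (75.2 to 82.7%). HP1c was usually the narrow partner, with a Dsk2 interval wider than the HP1c interval in 83.9% of the regions (80.3 to 87.0%). The median widths were 133.5 bp for HP1c (114 to 158 bp), 321 bp for Dsk2 (296 to 343 bp) and 287 bp for WOC (273 to 307 bp). HP1c intervals under 50 bp accounted for 30.6% of the regions (26.5 to 34.9%), close to the 29.0% of the full HP1c list.

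These regions took up 18.6% of the HP1c intervals in the data (504 of 2711), 10.3% of the Dsk2 intervals (491 of 4748) and 8.36% of the WOC intervals (489 of 5849). Z4 contributed 205 of its 7491 intervals (2.74%). Seen from the whole set of 1457 merged regions with HP1c, Dsk2 and WOC, 33.2% (30.8 to 35.7%) had no ROW. This share depended strongly on the intervals used. It was 69.5% with every interval set to 200 bp and 43.2% with the 50% widest intervals of each list. It was 38.6% when overlaps under 50 bp did not join intervals and 36.2% without intervals under 50 bp.

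Z4 was called much less often in these regions than where ROW was present. It was found in 41.5% of the HP1c, Dsk2 and WOC regions without ROW (201 of 484, 37.1 to 46.1%) and in 94.7% of those with ROW (921 of 973, 93.05 to 95.98%). Over all 4638 merged regions without ROW the share with Z4 was 39.7%, so the share among the 484 was near that background. For comparison, Dsk2 and WOC regions with neither HP1c nor ROW held Z4 in 38.9% (414 of 1064, 36.0 to 41.9%). With every interval set to 200 bp the shares were 52.7% without ROW and 84.75% with it, and with the 50% widest intervals of each list they were 17.0% and 78.6%. Chaining can add to this contrast, since a region whose Z4 interval meets ROW counts as having ROW. In 156 of the 921 regions with ROW and Z4, ROW overlapped Z4 and none of HP1c, Dsk2 and WOC. The part of chaining in the contrast was not tested.

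HP1c was called in 27.8 to 32.7% of Dsk2 and WOC regions unless ROW and Z4 were both there. Without ROW, HP1c was present at 30.3% of Dsk2 and WOC regions that lacked Z4 (283 of 933, 27.4 to 33.4%) and at 32.7% of those that had it (201 of 615, 29.0 to 36.5%). With ROW but no Z4 the share was 27.8% (52 of 187, 21.5 to 34.8%). With both ROW and Z4 it was 41.5% (921 of 2220, 39.4 to 43.6%). Regions with all 5 proteins had a median merged width of 1160 bp, and the part of width in this share was not tested.

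Although ROW was absent by choice, it was often close by. The nearest ROW interval was a median of 498 bp away (396 to 667 bp), counted as bases between the edge of the region and the ROW interval. The quartiles of the distance were 147.25 and 3495.5 bp. ROW lay within 100 bp of 16.7% of the regions, within 500 bp of 50.2% (243 of 484, 45.7 to 54.75%) and within 1000 bp of 59.1%, and within 10000 bp of 89.0%. Over all merged regions without ROW, on chromosomes that have any ROW interval, the share within 500 bp was 38.7%. The median depended on which calls were kept, and was 1070 bp without intervals under 50 bp, 1372 bp with the 50% widest intervals of each list and 249 bp when overlaps under 50 bp did not join intervals.

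Regions with and without Z4 had similar medians of this distance. The median was 507 bp with Z4 (305 to 960 bp, n = 201) and 498 bp without (394 to 678 bp, n = 283), and the shares within 500 bp were 49.75% (42.6 to 56.9%) and 50.5% (44.5 to 56.5%). These intervals overlap almost wholly. Below 500 bp the distances were distributed somewhat differently, since ROW lay within 250 bp of 39.8% of the regions with Z4 (33.0 to 46.9%) and of 32.2% of those without (26.7 to 37.9%), again with overlapping intervals. Regions with Z4 had the larger median width, and the part of width in these distances was not tested. Counted from the midpoint of the widest HP1c interval, the medians were 805 bp with Z4 (635 to 1244 bp) and 756 bp without (648 to 903 bp).

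**Figure D1:**
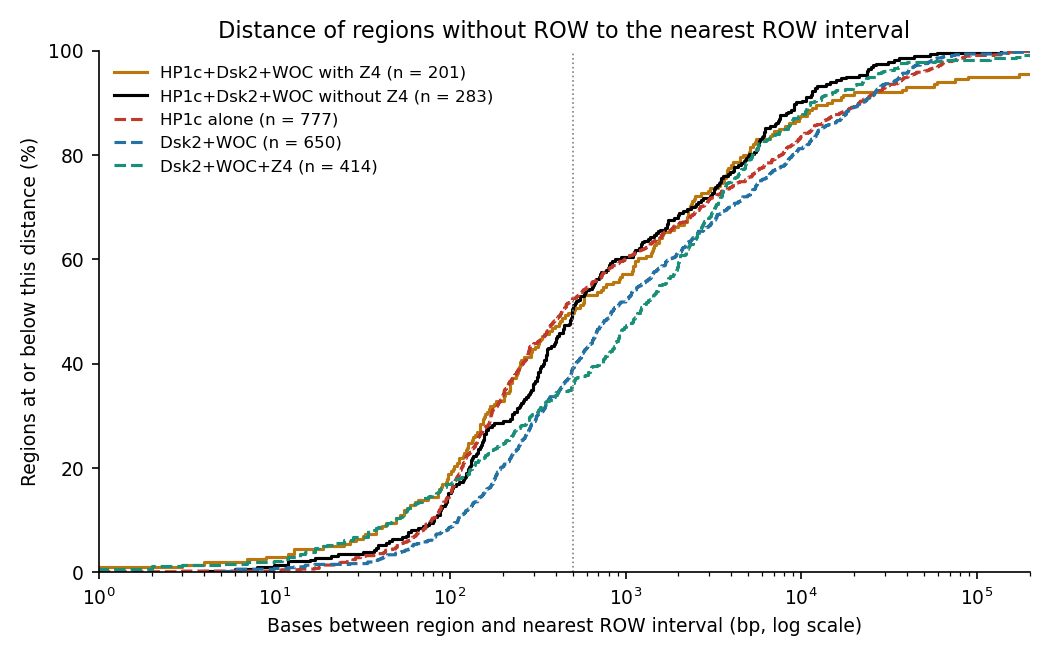
Cumulative share of merged regions without ROW (vertical axis, percent) by the number of bases to the nearest ROW interval (horizontal axis, log scale), for 5 kinds of region, with a dotted line at 500 bp. The HP1c, Dsk2 and WOC regions with Z4 (49.75%) and without Z4 (50.5%) and the HP1c regions alone (52.5%) cross the line above the Dsk2 and WOC regions without HP1c (39.1%, or 36.0% with Z4).

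The 484 regions stood nearer to ROW than Dsk2 and WOC regions without HP1c. HP1c regions with none of the other 4 proteins had a median distance of 434 bp (364 to 549 bp, n = 777), close to that of the 484. Dsk2 and WOC regions had a median of 835.5 bp (685 to 1126 bp, n = 650), and those with Z4 in addition 1207.5 bp (912 to 1559 bp, n = 414). WOC regions alone were farther still, at 1660 bp (1332 to 2052 bp, n = 772). Nearness was not shared by each kind with HP1c, since regions with HP1c and Dsk2 and no other protein had a median of 1016 bp, with a wide interval (217 to 7236 bp, n = 59). The 484 regions are wider than the HP1c or the Dsk2 and WOC regions, which brings their edges nearer to any neighbour, and the part of width in these distances was not tested.

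ROW flanked a part of the regions on both sides. Within 1000 bp, 100 regions had ROW on both sides (20.7%, 17.1 to 24.5%), 186 on 1 side (38.4%) and 198 on neither (40.9%). Over all merged regions without ROW the shares were 14.0% (13.0 to 15.1%), 35.1% and 50.9%. Two-sided flanking was found in 23.4% of the regions with Z4 (17.7 to 29.9%) and in 18.7% of those without (14.4 to 23.8%). Dsk2 and WOC regions without HP1c and Z4 had it in 13.4% of cases (10.9 to 16.2%), those with Z4 in 8.94% (6.37 to 12.1%), and HP1c regions alone in 24.5% (21.5 to 27.6%).

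The 286 regions with ROW within 1000 bp were turned so that this ROW interval was on the right. This selection and the rule fix that ROW coverage is 0 at the HP1c midpoint, rises beyond the region and is higher on the right, so the values describe only how far out it lay. In regions with Z4 (n = 115) ROW covered 4.35% of positions 200 bp to the right, 34.8% at 400 bp and 41.7% at 700 bp, its highest value. In regions without Z4 (n = 171) it covered 9.94% at 200 bp, 33.9% at 400 bp and at most 38.6%, at 550 bp. On the far side ROW covered at most 20.0% (13.1 to 28.5%) in regions with Z4, at 750 bp. In regions without Z4 it covered at most 11.7% (7.29 to 17.5%), with overlapping intervals.

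**Figure D2:**
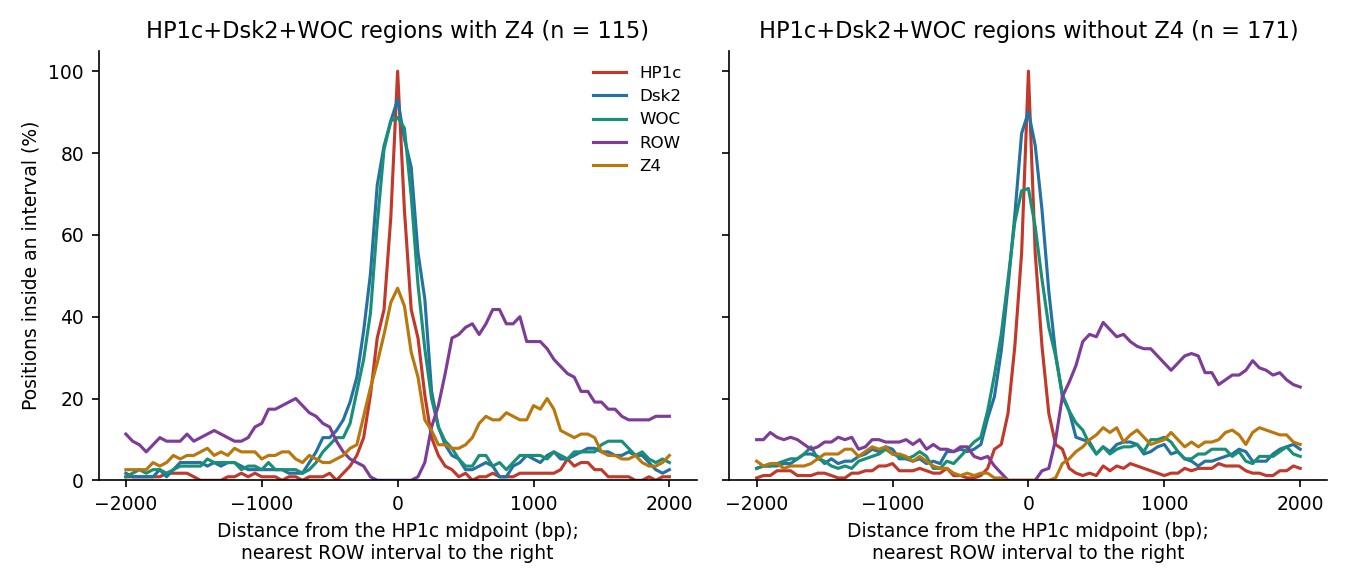
Share of positions (vertical axis, percent) that lie inside an interval of each of the 5 proteins, by distance from the midpoint of the widest HP1c interval (horizontal axis, bp), for regions with Z4 (left, n = 115) and without Z4 (right, n = 171) that have ROW within 1000 bp, turned so that the nearest ROW interval is on the right. HP1c, Dsk2 and WOC peak at the centre, Z4 covers 47.0% of the centres in the left panel, and ROW is at 0 there and highest at 700 bp (left) and 550 bp (right).

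Where ROW was near, HP1c midpoints lay somewhat more often on the ROW side of WOC midpoints. Among regions with ROW within 500 bp, the HP1c midpoint was nearer to ROW than the Dsk2 midpoint in 53.3% (128 of 240, 46.8 to 59.8%). It was nearer than the WOC midpoint in 63.2% (153 of 242, 56.8 to 69.3%), with a median shift of 12 bp towards ROW (5 to 26.5 bp). The shares were 63.6% with Z4 and 62.9% without. Over all the regions, whatever the distance to ROW, the share was 55.8% (269 of 482, 51.2 to 60.3%), and the intervals with Z4 (49.3 to 63.5%) and without (49.3 to 61.2%) both included 50%. Z4 midpoints were evenly split, being nearer to ROW than Dsk2 in 50 of 100 regions. The rule drops any region in which an interval reaches ROW. The part of this selection in these shares and shifts was not tested.

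The most frequent neighbour was a ROW region with none of the other proteins. Of the 243 ROW neighbours within 500 bp, 56.0% (49.5 to 62.3%) lay in merged regions with ROW alone, 41.6% (35.3 to 48.0%) in regions with Z4, and 18.5% (13.8 to 24.0%) in regions with HP1c, Dsk2 or WOC. Next to all merged regions without ROW (1794 neighbours within 500 bp) these shares were 62.6% (60.3 to 64.8%), 34.6% (32.4 to 36.8%) and 18.6% (16.8 to 20.5%). The confidence intervals overlap for each of the 3 shares. Over all 8406 merged regions with ROW, near or far, the shares were 40.9%, 55.7% and 37.0%. The share with ROW alone was 56.0% for regions with Z4 and 55.9% for those without. Neighbours of the Dsk2, WOC and Z4 regions differed from these, with 85.2% ROW alone (78.5 to 90.5%, n = 149) and a median ROW width of 43 bp, against 262 bp (213 to 366 bp) next to the 484. Of the 243 neighbours, 11 belonged to a region with all 5 proteins, beside 112 of the 1794 next to all merged regions without ROW.

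Where Z4 was absent from the region, it was usually also absent from its surroundings, and more often so where ROW was far. The nearest Z4 interval was a median of 2104 bp away (1636 to 2677 bp, n = 283), and 62 regions (21.9%, 17.2 to 27.2%) had 1 within 500 bp. That share was 14.6% (12.0 to 17.6%) for Dsk2 and WOC regions without HP1c, ROW and Z4, 32.6% (29.3 to 36.0%) for HP1c regions alone and 21.2% (11.1 to 34.7%) for the 52 regions with HP1c, Dsk2, WOC and ROW. Of the 143 regions with ROW within 500 bp, 54 had Z4 within 500 bp (37.8%, 29.8 to 46.2%). Of the 140 with ROW farther away, 8 did (5.71%, 2.50 to 10.9%). The ROW neighbours of the 143 regions themselves often held Z4, with 40.6% (32.4 to 49.1%) in merged regions with Z4. Over all merged regions with ROW that share was 55.7%. The same split by distance was not made for other kinds of region, so the contrast is not shown to be particular to these.

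Interval widths set regions with Z4 apart from those without. The Dsk2 interval had a median of 364 bp with Z4 (336 to 395 bp) and 282 bp without (266 to 315 bp), and the WOC interval 338 bp (312 to 364 bp) and 268 bp (254 to 280 bp). HP1c intervals differed less, at 157 bp (116 to 180 bp) and 127 bp (98 to 148 bp), with overlapping confidence intervals. The merged regions had medians of 463 bp (431 to 489 bp) and 372 bp (349 to 405 bp), of which a Z4 interval can be part. The run common to HP1c, Dsk2 and WOC was also longer with Z4, at 136 bp (98 to 160 bp, n = 189) against 65 bp (52 to 85 bp, n = 253), and Z4 intervals do not enter the length of this run. A wider interval meets a Z4 interval more easily, and the part of this in the differences was not tested.

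Z4 intervals in these regions were narrow. Their median was 115 bp (86 to 248 bp, n = 201), against 352 bp over the whole Z4 list, 334 bp (317 to 363 bp, n = 414) in Dsk2, WOC and Z4 regions without HP1c and ROW, and 660 bp (625 to 704 bp, n = 921) in regions with all 5 proteins. Z4 intervals under 50 bp made up 34.3% here (69 of 201, 27.8 to 41.3%), 7.73% in the regions without HP1c (5.35 to 10.7%) and 5.21% with all 5 proteins (3.87 to 6.85%). The narrow calls were more frequent beside ROW, where the rule drops any region whose Z4 interval reaches ROW. The part of this selection in the widths that follow was not tested. With ROW within 500 bp the median Z4 width was 86 bp (40 to 107 bp, n = 100) and 45 of 100 were under 50 bp, while with ROW farther away it was 270 bp (167 to 332 bp, n = 101) and 24 of 101 were under 50 bp.

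Dsk2 and WOC intervals, unlike those of Z4, were wider with HP1c than without it where ROW was absent. Their medians of 364 and 338 bp in regions with HP1c and Z4 stood above 172.5 bp (158 to 187 bp) and 217 bp (205 to 233 bp) in Dsk2, WOC and Z4 regions without HP1c. In the absence of Z4 they were 282 and 268 bp with HP1c and 121 bp (111 to 134 bp) and 151.5 bp (142 to 162 bp) without it. Both were below their medians in regions with all 5 proteins, 443 bp (428 to 470 bp) for Dsk2 and 412 bp (399 to 431 bp) for WOC. HP1c width hardly followed this order, with 146 bp (134 to 157 bp) in regions with all 5. A wider Dsk2 or WOC interval meets an HP1c interval more easily, and the part of this in these widths was not tested.

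**Figure D3:**
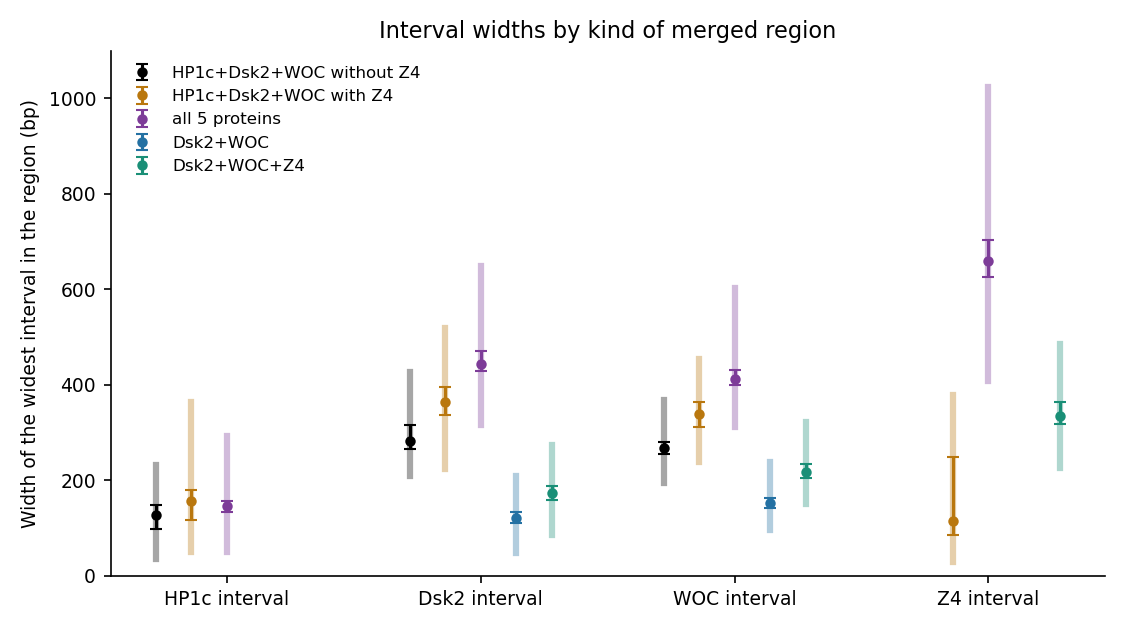
Width of the widest HP1c, Dsk2, WOC and Z4 interval per region (vertical axis, bp) in 5 kinds of merged region; points are medians, capped bars their 95% confidence intervals and pale bars the quartiles. Dsk2 and WOC intervals are widest with all 5 proteins and narrowest without HP1c, whereas Z4 has its lowest median, 115 bp, in the HP1c, Dsk2 and WOC regions without ROW.

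Within the regions, wide Dsk2 intervals went with wide WOC intervals and, more weakly, with narrow Z4 intervals. Across regions of these single libraries, Spearman's rho between Dsk2 and WOC widths was 0.82 with Z4 (n = 201) and 0.61 without (n = 283). For HP1c and Dsk2 widths it was 0.54 and 0.32. For Z4 widths it was -0.27 against HP1c and -0.29 against Dsk2, while in regions with all 5 proteins it was -0.02 and 0.20 (n = 921). Regions of 1 library share its depth and threshold and are not replicates, so no p is given.

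Z4 mostly touched the bases that the other 3 proteins shared. In 172 of 201 regions (85.6%, 79.9 to 90.1%) Z4 shared a base with the run common to HP1c, Dsk2 and WOC. The share was close to that in regions with all 5 proteins (797 of 921, 86.5%, 84.2 to 88.7%). The HP1c midpoint lay inside a Z4 interval less often, in 55.2% of the 201 regions (48.1 to 62.2%) against 74.8% (71.9 to 77.6%) with all 5 proteins. In the 201 regions the distances between midpoints were short. The Z4 midpoint was a median of 40.5 bp from that of Dsk2 (29 to 49.5 bp) and 48.5 bp from that of HP1c (39 to 64 bp). Z4 reached beyond the span of the other 3 proteins in 44.8% of the regions (37.8 to 51.9%), against 82.3% (79.7 to 84.7%) in regions with all 5 proteins, where its midpoint was 102 bp from that of Dsk2 (90.5 to 116 bp).

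The widest examples show these layouts. By mean width rank of HP1c, Dsk2 and WOC, the first region with Z4 lay on 3R from 23083422 to 23084845 (dm3), with an HP1c interval of 1207 bp, a Dsk2 interval of 1133 bp, a WOC interval of 1268 bp and a Z4 interval of 1424 bp. The 4 coincided closely, HP1c, Dsk2 and WOC sharing 1129 bp, and the nearest ROW interval was 4094 bp to the left. The second lay on 2L from 12010258 to 12012593 and held the widest Dsk2 interval of the set, 2336 bp, with 2 HP1c intervals and a Z4 interval of 55 bp. The third, on X from 10159326 to 10160369, had a WOC interval of 1038 bp and a ROW interval of 5 bp at a distance of 923 bp. The fourth, on 2R from 11015407 to 11016345, and the fifth, on 2L from 1649119 to 1650328, had Dsk2 intervals of 939 and 1210 bp. Their widest Z4 intervals measured 49 and 8 bp, so that 4 of these 5 wide regions carried a Z4 call under 60 bp.

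Without Z4 the first region lay on 2L from 9448716 to 9449904, with 2 HP1c intervals under a Dsk2 interval of 1189 bp. Its ROW neighbour of 453 bp was 58 bp to the left and held a Z4 interval. The second, on 2R from 6446203 to 6447410, had the widest HP1c interval of the set (1208 bp), and a ROW interval of 933 bp ended 45 bp before it. That ROW interval belonged to a region with Dsk2, WOC and Z4. The third lay on X from 9478767 to 9479866, with ROW 400 bp away, and the fourth on X from 7984996 to 7985680, where ROW, as a call of 6 bp, was 1350 bp away. The fifth, on 2L from 16684231 to 16685419, had Dsk2 and WOC intervals of 1037 and 964 bp, an HP1c interval of 267 bp and a common run of 42 bp.

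**Figure D4:**
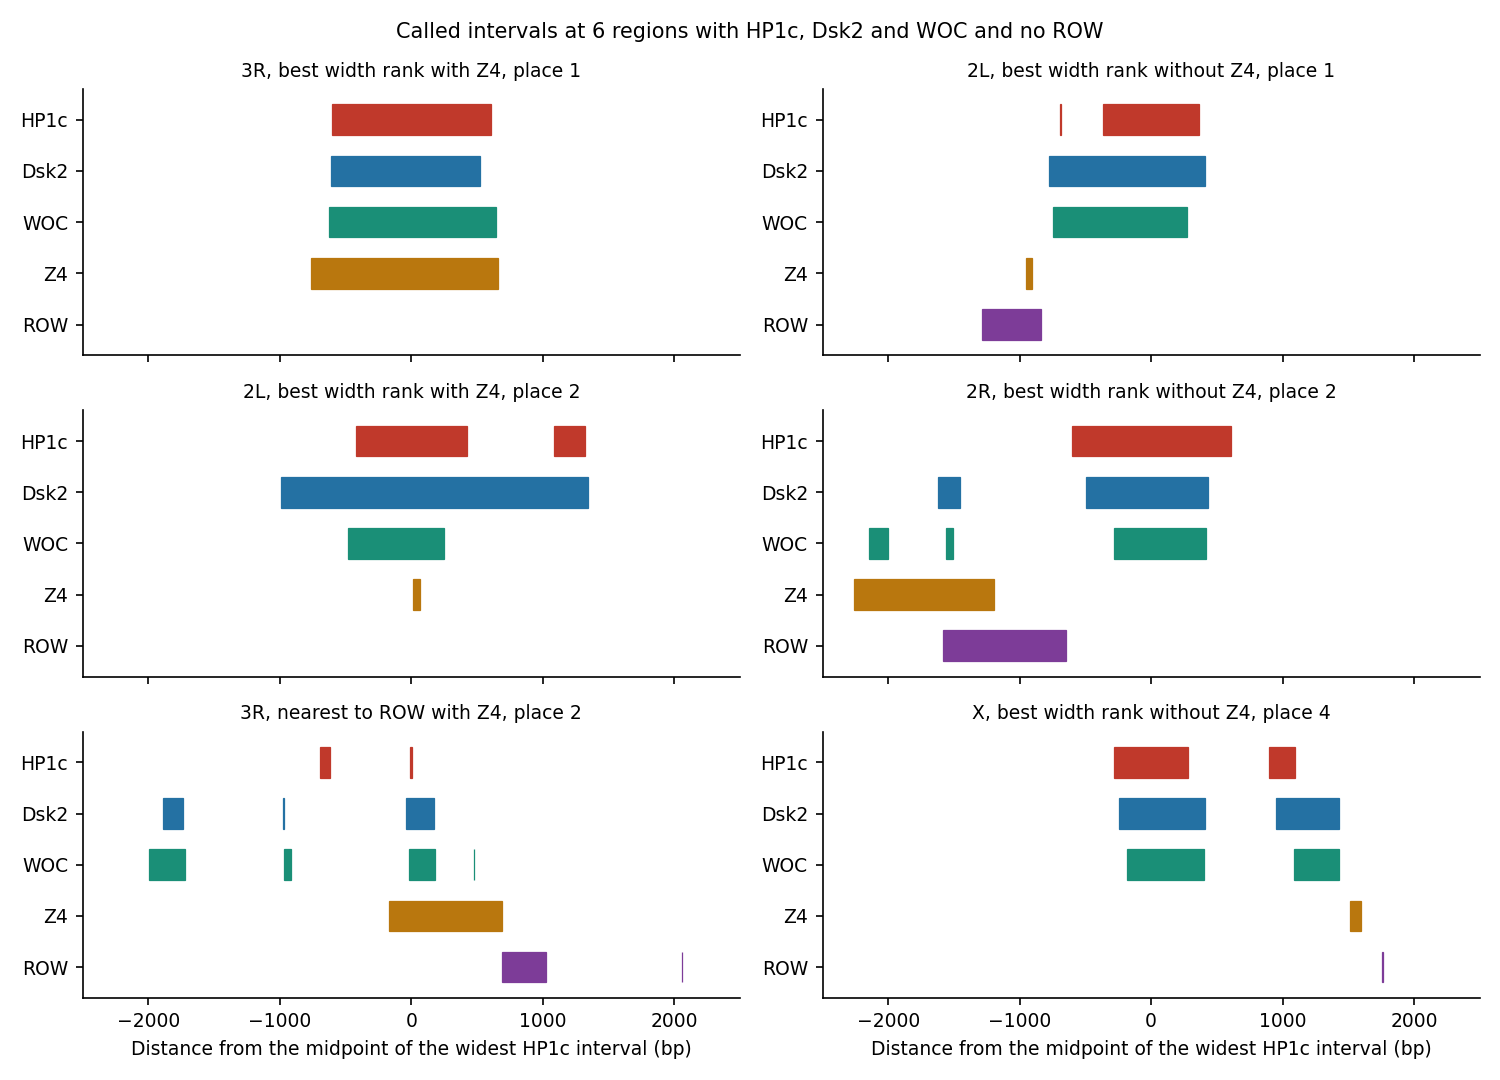
Called intervals of HP1c, Dsk2, WOC, Z4 and ROW (rows) at 6 of the regions, by distance from the midpoint of the widest HP1c interval (horizontal axis, bp); bars run from start to end of each interval. On the left are regions with Z4, among them the 3R region whose 4 intervals coincide and the 3R region that ends 1 bp before a ROW interval, and on the right are regions without Z4, with ROW 58, 45 and 1350 bp away.

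A few bases decided membership in some cases. Just inside the rule, a region with Z4 on 2R from 10250266 to 10250674 and another on 3R from 21707012 to 21707872 each had 1 bp between them and a ROW interval, and the next, on 2R from 12717822 to 12718344, had 3 bp. Without Z4 the nearest lay on 3L from 8979226 to 8979379 (4 bp), on 2L from 8411584 to 8412059 (6 bp) and on 3L from 7428207 to 7428627 (8 bp). Just outside it, ROW intervals of 1 bp fell inside HP1c, Dsk2 and WOC regions on 2L from 472271 to 472570, on 2R from 2758776 to 2758991 and on 2R from 9924579 to 9925202. In all, 39 of the 484 regions had a ROW interval less than 50 bp away (8.06%), and 103 of the 973 regions with ROW shared under 50 bp with it (10.6%).

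Chaining also placed some regions on the other side. In 156 of the 921 regions with all 5 proteins (16.9%, 14.6 to 19.5%) ROW overlapped Z4 and none of HP1c, Dsk2 and WOC. In 382 of them (41.5%) ROW shared no base with HP1c, and in the 52 regions with HP1c, Dsk2, WOC and ROW but no Z4 this was so in 28 (53.8%).

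At the other extreme, a few regions lay far from any ROW interval. The 3 farthest with Z4 were on the unplaced sequence Uextra (5223986 to 5224471, 8511055 to 8511412 and 12698863 to 12699050), an artificial concatenation in which distances have no chromosomal meaning. On the large arms, looked up after these values had been seen, the farthest with Z4 were on 2L from 17963104 to 17963526 (174334 bp), on 2R from 17771577 to 17772063 (88671 bp) and on 2L from 14689348 to 14689734 (74809 bp). Without Z4 they were on X from 4977461 to 4978053 (136381 bp), on X from 4156753 to 4157006 (59120 bp) and on 3L from 12074966 to 12075610 (54038 bp). HP1c intervals were 67 bp or narrower in 5 of these 6 regions, the exception being 299 bp at 2L 14689348. Over all 484 regions the HP1c width had a lower quartile of 41 bp and a median of 133.5 bp. A link between HP1c width and distance was not tested.

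The X chromosome took a large part of the regions. It held 124 of 484 (25.6%, 21.8 to 29.75%), against 120 of 921 regions with all 5 proteins (13.0%, 10.9 to 15.4%) and 19.1% of all merged regions. The share on X was 24.3% over all merged regions without ROW, 28.9% (25.5 to 32.6%) for Dsk2 and WOC regions and 28.7% (24.4 to 33.4%) for those with Z4 in addition, so the 484 were near the background of regions that lack ROW. X held 27.9% of the regions without Z4 (22.8 to 33.5%) and 22.4% of those with it (16.8 to 28.8%). In density, X had 5.54 of the regions per Mb and the other large arms between 3.36 (2R) and 3.95 (3R).

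On X, HP1c, Dsk2 and WOC were called without ROW about as often as with it. Of the 258 merged X regions with these 3 proteins, 48.1% (41.8 to 54.3%) had no ROW, against 29.7% (27.1 to 32.4%) of 1168 on 2L, 2R, 3L and 3R. Dsk2 and WOC regions without HP1c showed the same order, with 62.9% (58.5 to 67.2%) on X and 37.4% (35.2 to 39.55%) on those arms. ROW was also present in fewer of all merged regions on X (54.6%, 52.7 to 56.6%) than on those arms (67.1%, 66.2 to 68.1%). The distance followed, since the median from the 484 regions to ROW was 887.5 bp on X (518 to 1495 bp, n = 124) and 374 bp on the 4 arms (316 to 498 bp, n = 347). ROW lay within 500 bp of 40.3% of the X regions (31.6 to 49.5%) and of 55.6% of those on the 4 arms (50.2 to 60.9%). With every interval set to 200 bp, X held 20.2% (17.6 to 22.9%) of the regions so defined.

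**Figure D5:**
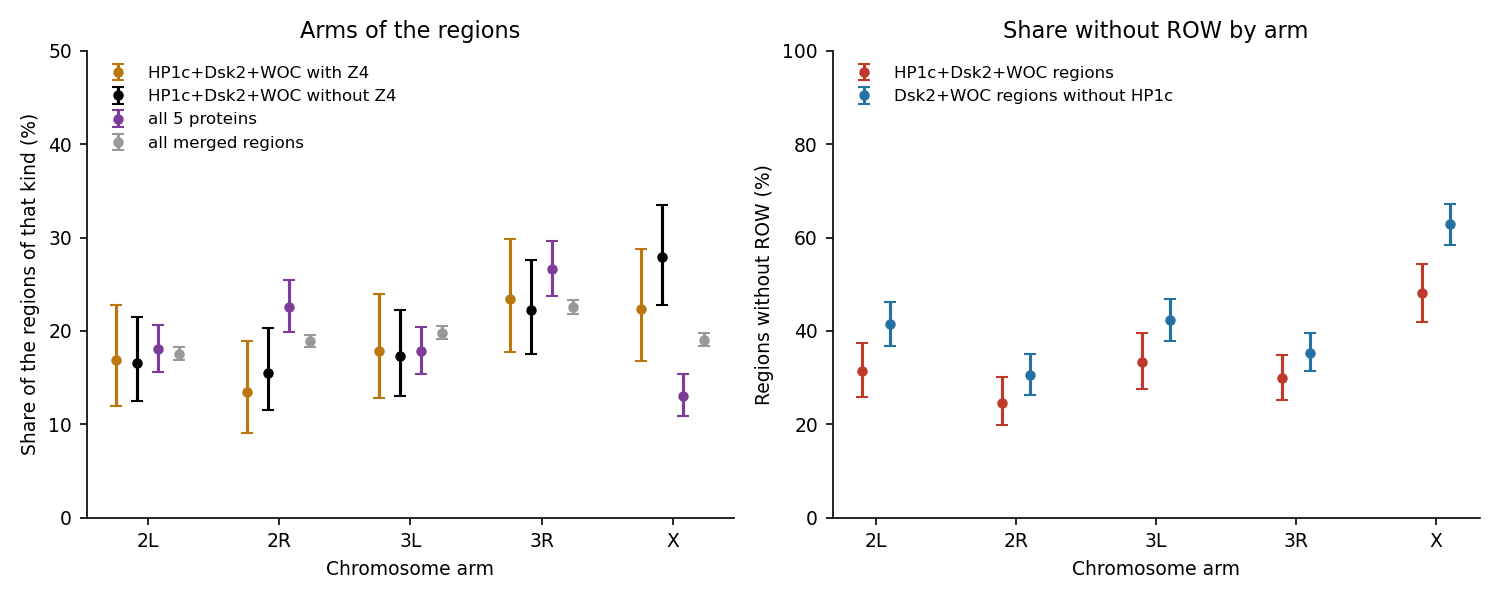
Left, share of regions (percent) on each of the 5 large arms for HP1c, Dsk2 and WOC regions with and without Z4, regions with all 5 proteins and all merged regions; right, share of regions without ROW (percent) by arm, for regions with HP1c, Dsk2 and WOC and for Dsk2 and WOC regions without HP1c. Points are shares and bars exact 95% confidence intervals; X stands highest in the right panel, at 48.1% and 62.9%, and lowest on the left for regions with all 5 proteins, at 13.0%.

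On unplaced sequence, each of the regions found had Z4. Uextra had 10 and U had 1 of the 201, and neither had any of the 283 without Z4. Dsk2 and WOC regions without HP1c and ROW showed the same order. Outside the large arms and chromosome 4 lay 14 of 414 with Z4 and 1 of 650 without. The Uextra regions were 188 to 486 bp wide, and 54 merged regions lay there in all, 11 of them with ROW. The share with Z4 among all merged regions without ROW on U and Uextra was not counted, so no background is given. The sequences 2LHet, 2RHet, 3LHet, 3RHet and XHet held none of the 484. Chromosome 4 had 1 region with Z4 and 1 without. Members were spread thinly along the arms, with a median of 57255 bp to the next (46334 to 73924 bp) and 43933.5 bp to the nearest region with all 5 proteins (34893 to 51572 bp), and 23 of 484 (4.75%) had such a region within 1000 bp.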

How the data were processed

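Each protein was represented by 1 immunoprecipitated library from S2 cells. The deposited files give a chromosome, a start and an end (bp) per called interval, with no other values. The series' design text names peak calling against the input. CASAVA 1.8, FastQC 0.9.3, Bowtie 0.12.5 and the dm3 build are named in the submitters' processing notes. Neither the peak caller nor its threshold is given in the sources used here. No genome or annotation of dm3 was used, so no gene or sequence is given.

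Ends were taken as inclusive. Intervals sharing at least 1 bp were chained across the 5 lists, and gaps count the bases between region and ROW interval. Merging and distances were tested on simulated data. The widest interval stood for a protein with several. Named regions are the 5 best by mean width rank, the 3 nearest to and the 3 farthest from ROW (each with and without Z4), the 3 just outside the rule and those with most HP1c intervals (2 regions, on 2L from 9448716 and from 11268906). The regions and rules were chosen with earlier results of these data known. Alternatives were a 50 bp overlap, 200 bp intervals, intervals of at least 50 bp, the 50% widest intervals, exclusive ends, the large arms alone and distances from HP1c midpoints. Software was matplotlib 3.10.9, SciPy 1.17.1, NumPy 2.4.6 and Python 3.11.15.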

Additional observations from a re-analysis of the deposited data

How the results depend on the processing

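Exclusive ends and the large arms alone left each result within its confidence interval. Requiring 50 bp of overlap kept 385 regions, with Z4 in 34.3%, a median ROW distance of 249 bp (overlaps under 50 bp counted as 0), ROW within 500 bp of 62.1%, and median widths of 517.5 bp with Z4 and 470 bp without. Intervals of 200 bp gave 912 regions, with Z4 in 52.7%, 366.5 bp, 58.8%, and widths of 313 and 287 bp. Without intervals under 50 bp there were 368 regions, with Z4 in 32.9%, 1070 bp, 43.2%, and widths of 510 and 440 bp. The 50% widest intervals gave 288 regions, with Z4 in 17.0%, 1372 bp, 37.0%, and widths of 668 and 565 bp. From HP1c midpoints the distance was 756 bp without Z4 and 805 bp with it. In each of these settings regions with Z4 had the larger median width, to which the Z4 interval itself can add. The confidence intervals of the widths overlapped with 50 bp of overlap, with 200 bp intervals and without intervals under 50 bp. Among regions with ROW, the share with Z4 was 92.7%, 84.75%, 91.4% and 78.6% in the same 4 settings (chosen after seeing the data), above that without ROW each time. The share on X ran from 20.2 to 26.3%. No paired analysis was possible because each protein had 1 library. Without scores or read numbers, weak binding and no binding cannot be told apart, and the absence of ROW rests on the authors' threshold.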
